A study of Mus musculus with 2 samples.

Results

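A group of 9 genes that mark phagocytic or perivascular macrophages (Spp1, Lpl, Cd68, Lgals3, Hmox1, Mrc1, Pf4, Lyve1 and Gpnmb) was followed by symbol among the 32285 genes of the count tables, and all 9 were found. Their UMIs (unique molecular identifiers, 1 per captured transcript) were read in microglia or macrophages, taken as cells in which C1qa, C1qb and C1qc together reached at least 1000 CPM (UMIs of a gene scaled to a total of 1000000), and in all other cells. The cells came from mouse retinas at postnatal day 6, enriched with beads against CD31, an endothelial surface protein, so that macrophages are the cells that came through an endothelial selection. The Alk1 ECKO library carried Alk1 f/f together with Cdh5 CreERT2, in which the endothelial Cdh5 promoter drives a tamoxifen-inducible Cre, and the control library carried Alk1 f/f alone. Both therefore share the floxed allele, and only Alk1 ECKO carries Cre. There was 1 library per genotype, without replicates, so no test between genotypes was possible and the 95% intervals given here cover counting error only.

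Macrophages that clear dead cells and debris raise a set of lysosomal and lipid genes. Spp1 encodes osteopontin, a secreted integrin ligand, Lpl encodes lipoprotein lipase, Cd68 a lysosomal membrane glycoprotein, Lgals3 galectin-3, and Gpnmb a transmembrane glycoprotein of lysosomes. Hmox1 encodes haem oxygenase 1, which breaks down haem and releases iron. Perivascular macrophages, which sit on the outside of vessels, are set apart from microglia, the resident macrophages of neural tissue, by Mrc1, the mannose receptor CD206, by the chemokine Pf4, which platelets also store, and by Lyve1, a hyaluronan receptor also found on lymphatic endothelium.

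The promoters of Mrc1 and Pf4, the pair with the largest differences that have an entry in the RefSeq promoter table (GRCm38.p6), and that of Spp1 are shown as 300 bases from 250 before to 50 after the start site, 5′ to 3′ on the gene's strand. Capitals mark GAGGAA or its reverse complement TTCCTC, the core bound by ETS family factors such as PU.1 of myeloid cells.
Mrc1, chr2:14229164-14229463, plus strand: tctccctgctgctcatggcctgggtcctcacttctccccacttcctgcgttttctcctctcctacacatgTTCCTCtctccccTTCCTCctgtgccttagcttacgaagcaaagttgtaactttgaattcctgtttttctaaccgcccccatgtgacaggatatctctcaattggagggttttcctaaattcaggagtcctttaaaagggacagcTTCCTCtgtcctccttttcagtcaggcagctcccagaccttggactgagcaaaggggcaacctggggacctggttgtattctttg
Pf4, chr5:90772185-90772484, plus strand: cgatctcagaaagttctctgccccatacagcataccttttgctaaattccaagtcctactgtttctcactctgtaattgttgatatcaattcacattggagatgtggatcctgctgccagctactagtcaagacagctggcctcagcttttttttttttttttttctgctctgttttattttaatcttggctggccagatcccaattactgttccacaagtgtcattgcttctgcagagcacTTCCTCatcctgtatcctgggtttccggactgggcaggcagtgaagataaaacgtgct
Spp1, first of 2 start sites, chr5:104434861-104435160, plus strand: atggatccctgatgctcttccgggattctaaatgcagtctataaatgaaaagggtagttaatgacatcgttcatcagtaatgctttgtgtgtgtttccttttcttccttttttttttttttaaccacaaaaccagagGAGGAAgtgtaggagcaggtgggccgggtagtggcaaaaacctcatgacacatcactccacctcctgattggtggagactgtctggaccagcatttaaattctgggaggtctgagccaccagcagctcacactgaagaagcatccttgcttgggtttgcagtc
The Mrc1 window held the motif 3 times, the Pf4 window 1 time and this Spp1 window 1 time, with no overlap between matches. The second Spp1 window and those of Gpnmb and Lgals3 held none, and the Cd68 window held 2. A promoter of this length held GAGGAA on either strand in 28.3% of 32851 RefSeq windows, so a single match is common. TCACGTG, the E-box core of MiT/TFE factors (3.77% of windows), and TGACNNNGC, the antioxidant response core (12.4%), were searched on both strands too and matched none of the 7 windows. Windows were found for 6 of the 9 genes, and Lpl, Hmox1 and Lyve1 had no entry.

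Sequencing yielded 62728605 UMIs over 5308 barcodes for Alk1 ECKO and 54800465 UMIs over 8739 barcodes for control. After filtering and removal of likely doublets, 4093 Alk1 ECKO and 7409 control cells were retained. The libraries shared 20 barcodes, 14 of them among retained cells. Acvrl1, the gene of Alk1, stood at 115.6 CPM in 1346 Alk1 ECKO endothelial cells and at 115.0 CPM in 315 control endothelial cells, a check that says nothing of the deletion where the 3' end that is read lies outside the deleted part, which the labels do not give.

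The C1q rule took in different kinds of droplets in the libraries. It was met by 1408 Alk1 ECKO cells, 34.4% of those retained, and by 72 control cells, 0.972%. Of the Alk1 ECKO cells, 282 lay in the cluster that carried macrophage markers, while 1107 lay in an unnamed cluster led by a mixture of endothelial, haemoglobin and macrophage transcripts, among them Hmox1, and 19 lay in rod or endothelial clusters. Of the control cells, 70 lay in the macrophage cluster. The 1126 Alk1 ECKO cells outside the macrophage cluster held a median of 5 C1q UMIs and 0.404% mitochondrial UMIs, against 245.5 C1q UMIs and 3.46% in the 282 cells inside it. Depth differed too, with a median of 1926.5 UMIs outside and 11292 UMIs inside. Scaled to depth, the median C1q level was 2585 CPM outside and 20108 CPM inside. Endothelial list transcripts summed to 6918 CPM outside the cluster and to 126 CPM inside it. The results below are therefore given for all cells that met the rule and then for those in the macrophage cluster, a restriction chosen after these droplets had been seen. Just inside the threshold, 326 Alk1 ECKO cells and 2 control cells held 1000 to 2000 CPM of C1q, and just outside it 138 Alk1 ECKO and 18 control cells held 500 to 1000 CPM.

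**Figure D1:**
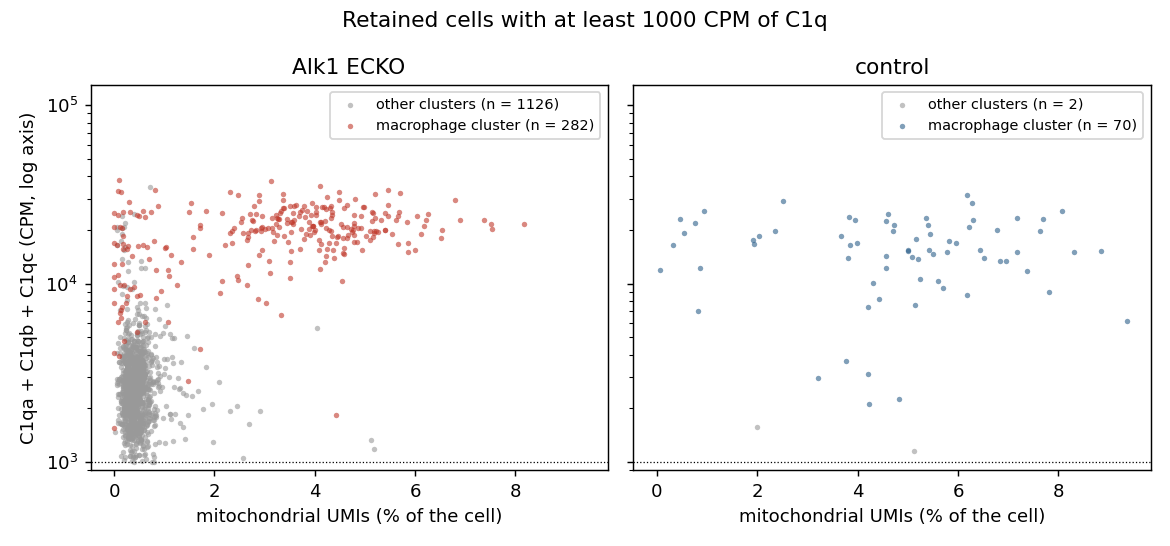
Each point is a retained cell that met the C1q rule, with its mitochondrial share of UMIs (percent) on the horizontal axis and its summed C1qa, C1qb and C1qc level (CPM, log axis) on the vertical axis. The dotted line is the threshold of 1000 CPM. The 1126 Alk1 ECKO cells outside the macrophage cluster (grey) crowd at a median mitochondrial share of 0.404%, while only 2 control cells lay outside it.

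Over all cells that met the rule, none of the 9 genes was called higher in Alk1 ECKO and 8 were called lower, where a call needs a difference of at least 1.5-fold with an interval that excludes no change. Of 9646 measured genes, those with at least 30 UMIs over both libraries, 20.0% were called higher and 27.4% lower by the same rule, with a median log2 ratio of -0.98 for the 9 and of -0.13 for all. With the fold limit lowered to a ratio of 5 to 4, 1 of the 9 was called higher, beside 22.6% of genes, and with a limit of 2-fold 4 were called lower, beside 18.0%. Microglial identity genes, a list that holds none of the 9, were called lower for 11 of 12 in the same cells, and the cells compared differ in kind, since 70 of 72 in control and 282 of 1408 in Alk1 ECKO lay in the macrophage cluster. The exception was Spp1, at 940 CPM in Alk1 ECKO cells and 646 CPM in control cells (log2 ratio 0.54, interval 0.41 to 0.67), and without the Alk1 ECKO cell richest in Spp1 it was at 512 CPM in Alk1 ECKO (log2 ratio -0.34). Without the richest cell of both libraries it was at 512 CPM in Alk1 ECKO and 417 CPM in control (log2 ratio 0.30, interval 0.13 to 0.47, not called).

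Within the macrophage cluster the picture divided the 9 genes into 3 sets. The perivascular genes Mrc1, Pf4 and Lyve1 were far lower in the 282 Alk1 ECKO cells than in the 70 control cells. Spp1 was the single gene called higher. That call ended when the richest Alk1 ECKO cell alone was left out, and held when the richest cell of both libraries was left out. Lpl, Cd68, Lgals3, Hmox1 and Gpnmb differed by less than 1.5-fold. Thus 1 of 9 was called higher and 3 lower, where 2.99% and 12.9% of 7763 measured genes were called in these directions, with a median of -0.27 over the 9 and of -0.14 over all genes.

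**Figure D2:**
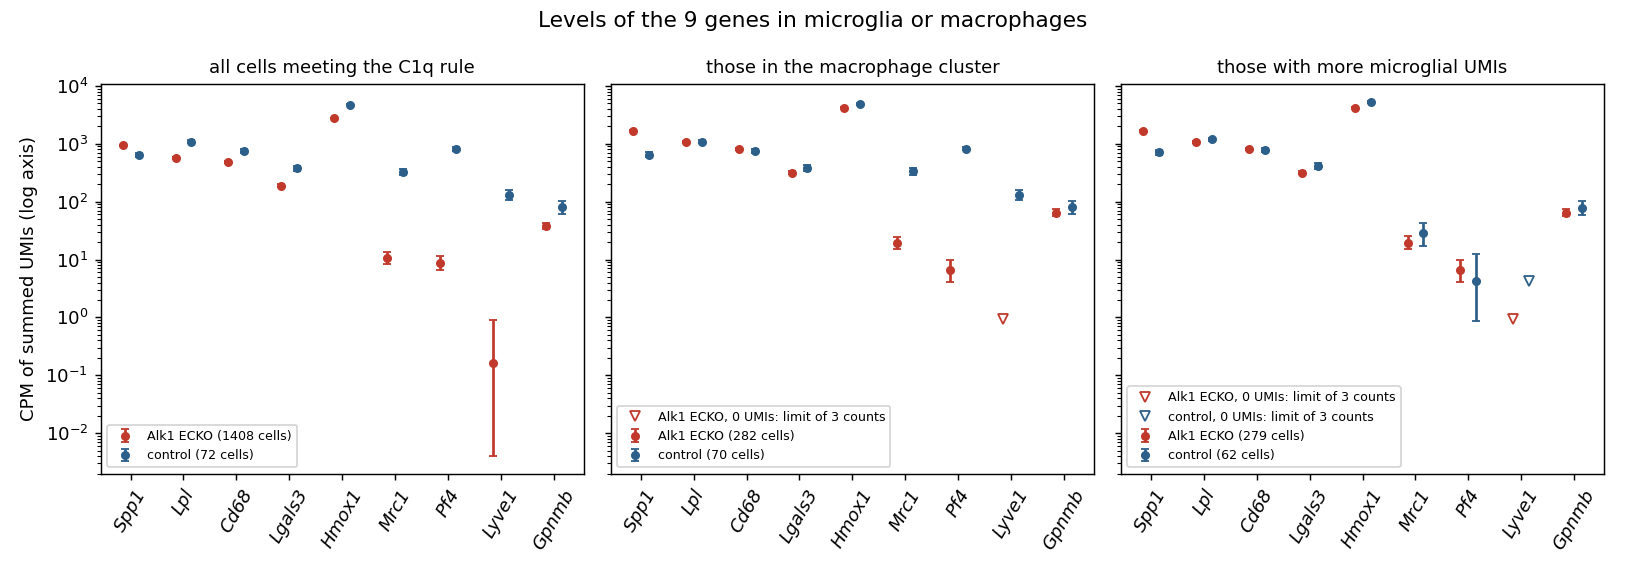
Levels of the 9 genes as CPM of summed UMIs (log axis) in all cells that met the C1q rule, in those of the macrophage cluster, and in those of the cluster with more microglial than perivascular UMIs, with Alk1 ECKO left of control in each pair. Bars are exact 95% Poisson intervals of 1 library each, and open triangles mark 0 UMIs at the limit of 3 counts. Mrc1, Pf4 and Lyve1 lie apart in the first and second panel, while in the third Mrc1 stood at 19.6 CPM in Alk1 ECKO and 28.2 CPM in control.

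Among the perivascular genes, Mrc1 had 63 UMIs (19.5 CPM) in Alk1 ECKO cells of the cluster and 259 UMIs (334 CPM) in control cells, a log2 ratio of -4.09 (interval -4.52 to -3.69). Pf4 had 21 UMIs (6.51 CPM) in Alk1 ECKO and 643 UMIs (828 CPM) in control, a log2 ratio of -6.99 (-7.69 to -6.37). Lyve1 had 0 UMIs in Alk1 ECKO and 103 UMIs (133 CPM) in control, which is at least 143-fold lower when the limit of 3 counts over the Alk1 ECKO cells is used. All 3 were low in Alk1 ECKO and high in control, but a few control cells carried them: the single richest control cell held 37.1% of the control UMIs of Mrc1, 34.8% of those of Pf4 and 68.0% of those of Lyve1. Leaving out the richest cell of each library kept all 3 calls, at log2 ratios of -3.60 for Mrc1 and -6.79 for Pf4, with Lyve1 at 43.3 CPM in the remaining control cells.

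These control cells were found again with markers that include none of the 9 genes. A cell was assigned by whether its UMIs of 10 perivascular genes (among them F13a1, Cd163, Ms4a7 and Cd209f) outnumbered those of 12 microglial genes (among them P2ry12, Tmem119, Sall1 and Cx3cr1). By this count 1 of 282 Alk1 ECKO cells was perivascular (0.355%, Clopper-Pearson interval 0.00898 to 1.96), against 8 of 70 control cells (11.4%, 5.07 to 21.3). Of all retained cells, perivascular cells made up 0.0244% (0.000619 to 0.136) in Alk1 ECKO and 0.108% (0.0466 to 0.213) in control, intervals that overlap. The 282 cells were 6.89% of those retained in Alk1 ECKO and the 70 cells 0.945% in control. Shares and levels within the cluster therefore also depend on how many microglial cells each library held. The Alk1 ECKO cell was a droplet of 1303 UMIs that rested on 1 Folr2 UMI and held none of Mrc1, Pf4 and Lyve1. The 8 control cells held 2605 to 14840 UMIs each, and in them Tmem119, Sall1, Olfml3 and Slc2a5 were at 0.

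In the 8 control perivascular cells Mrc1 was detected in 8 of 8 cells with 6 to 96 UMIs each, at 3601 CPM in sum. Pf4 was detected in 8 of 8 with 12 to 224 UMIs each, at 9643 CPM. Lyve1 was detected in 6 of 8, at 1552 CPM, with 70 of its 103 UMIs in 1 cell. Of the phagocytic genes, Spp1 was at 0 UMIs in these cells, Lpl at 2 UMIs and Lgals3 at 3 UMIs in 1 cell. Gpnmb had 8 UMIs, all in 1 cell, which gave 120.5 CPM beside 77.5 CPM in the control microglial cells. Cd68, a pan-macrophage lysosomal gene, was present in 8 of 8 at 347 CPM, and Hmox1 in 4 of 8 at 256 CPM. The 9 platelet and megakaryocyte genes examined, Ppbp and Itga2b among them, were at 0 UMIs in the 8 cells. These cells held 66368 UMIs in all, in which 3 counts of a gene equal 45.2 CPM. Ppbp was also at 0 in all rule cells of both libraries, and Itga2b in those of control, so their zeros do not set the 8 cells apart. A platelet source of the Pf4 UMIs was not tested.

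The search was widened to every deposited barcode to see whether filters had removed such cells from Alk1 ECKO. No barcode of 5308 in Alk1 ECKO held all of Mrc1, Pf4 and Lyve1, against 7 of 8739 in control, 1 of which had been removed as a doublet. At least 2 of the 3 genes were held by 30 barcodes in Alk1 ECKO and 15 in control. Among retained cells that met the C1q rule there were 5 such cells in Alk1 ECKO and 9 in control, all in the macrophage cluster. Of the 30 and 15 deposited barcodes, 3 in Alk1 ECKO and 9 in control also held at least 10 UMIs of the perivascular list. In the macrophage cluster 6 Alk1 ECKO cells held 10 or more perivascular list UMIs, but with 15 to 170 microglial UMIs they counted as microglial, and they carried 17 Mrc1, 9 Pf4 and 0 Lyve1 UMIs in all.

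Among the cells that counted as microglial, 279 in Alk1 ECKO and 62 in control, no such difference in Mrc1 was detectable at this depth. It stood at 19.6 CPM in Alk1 ECKO and 28.2 CPM in control (log2 ratio -0.53, interval -1.27 to 0.28). Pf4 had 21 UMIs in Alk1 ECKO and 3 in control, and Lyve1 had none in either. Of the 7 genes measured in microglial cells Spp1 was called higher and none lower, beside 2.74% called higher and 11.3% called lower of 7697 genes.

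**Figure D3:**
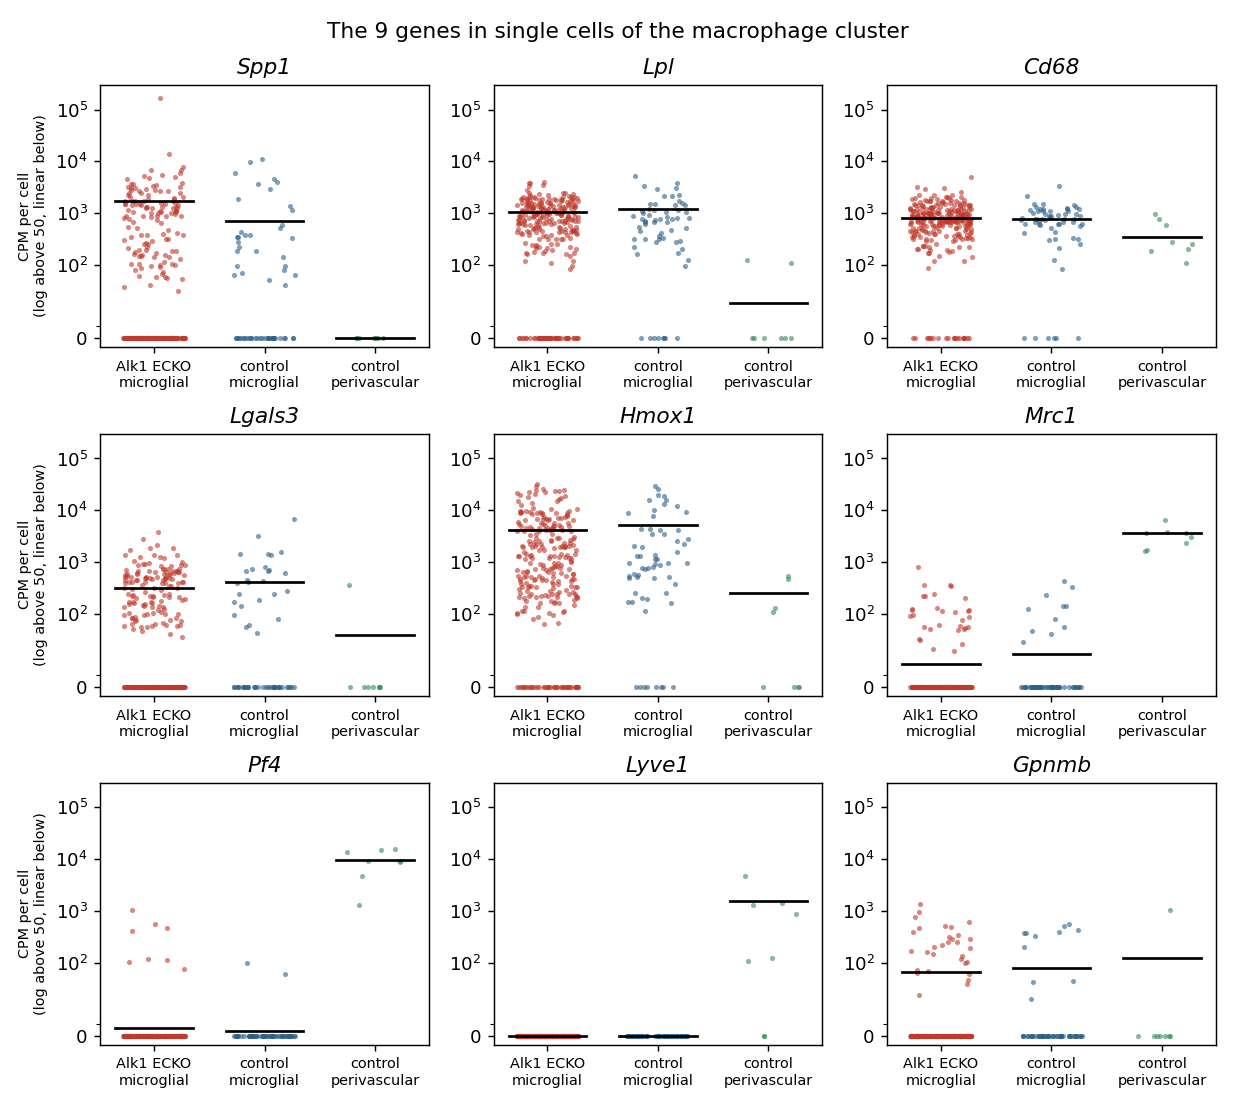
Each point is a cell of the macrophage cluster, with the level of 1 of the 9 genes in CPM (log scale above 50, linear below), for 279 Alk1 ECKO microglial, 62 control microglial and 8 control perivascular cells. Black lines are CPM of summed UMIs. The control perivascular cells carry Mrc1 and Pf4 in 8 of 8 and no Spp1, and 1 Alk1 ECKO cell lies far above all others for Spp1.

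Spp1 stood at 1692 CPM (1647 to 1737) in the 282 Alk1 ECKO cells and at 652 CPM (596 to 711) in the 70 control cells, a ratio of 2.60 (log2 ratio 1.38, interval 1.24 to 1.51). One Alk1 ECKO cell of 16155 UMIs held 2687 of the 5456 Spp1 UMIs, 49.2%. Without that cell Spp1 was at 863 CPM in Alk1 ECKO, a log2 ratio of 0.40 to control that was no longer called, so that none of the 9 genes was then called higher. The richest control cell held 37.2% of the control UMIs. Without the richest cell of both libraries Spp1 was at 863 CPM in Alk1 ECKO and 420 CPM in control (log2 ratio 1.04, 0.87 to 1.21, called higher). In microglial cells alone Spp1 was at 1694 CPM in Alk1 ECKO and 713 CPM in control, and at 864 CPM in Alk1 ECKO without its richest cell (log2 ratio 0.28, not called).

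The share of cells with Spp1 moved less than its sum. It was detected in 133 of 282 Alk1 ECKO cells (47.2%) and in 31 of 70 control cells (44.3%). After each cell was thinned to 2000 UMIs the shares were 37.4% (31.1 to 44.0) of 230 Alk1 ECKO cells and 25.8% (15.5 to 38.5) of 62 control cells, intervals that overlap. Rods, which should lack the gene and had median depths of 2196 UMIs in Alk1 ECKO and 2609 UMIs in control, gave 0 of 280 thinned Alk1 ECKO cells, which allows up to 1.07%, and 0.0357% of 2803 control cells. Cells above 1000 CPM of Spp1 made up 24.5% of Alk1 ECKO and 14.3% of control cells of the cluster. The richest 28 of 282 Alk1 ECKO cells held 86.1% of the Spp1 UMIs and the richest 7 of 70 control cells 79.6%, so a minority of cells held most Spp1 UMIs in both libraries.

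Lpl and Cd68 differed little between the libraries. Lpl had 1066 CPM in Alk1 ECKO and 1091 CPM in control (log2 ratio -0.03, -0.14 to 0.08), and the median cell held 714 CPM in Alk1 ECKO and 573 CPM in control. Cd68 had 819 CPM in Alk1 ECKO and 749 CPM in control (log2 ratio 0.13, -0.00 to 0.26), with a median cell of 744 CPM in both. They were the most evenly spread of the set over cells. The richest 10% of cells held 38.5% of Lpl UMIs in Alk1 ECKO and 52.9% in control. For Cd68 they held 33.3% in Alk1 ECKO and 31.3% in control. After thinning Lpl was detected in 72.6% (66.4 to 78.3) of Alk1 ECKO and 59.7% (46.5 to 72.0) of control cells. Cd68 was detected in 76.5% (70.5 to 81.8) of Alk1 ECKO and 67.7% (54.7 to 79.1) of control cells.

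Hmox1 was the most abundant of the 9 genes by UMIs in both libraries, and its level differed widely between cells. Its sum was 4209 CPM in Alk1 ECKO and 4809 CPM in control (log2 ratio -0.19, -0.24 to -0.14), which excludes no change by counting error but lay within 1.5-fold. The median cell held 852 CPM in Alk1 ECKO and 779 CPM in control, while the highest cell reached 31394 CPM in Alk1 ECKO and 29532 CPM in control. The richest 10% of cells held 65.9% of the Hmox1 UMIs in Alk1 ECKO and 66.0% in control. Lgals3 had 316 CPM in Alk1 ECKO and 380 CPM in control (log2 ratio -0.27, -0.45 to -0.07). Gpnmb had 207 UMIs (64.2 CPM) in Alk1 ECKO and 63 UMIs (81.2 CPM) in control (log2 ratio -0.34, -0.75 to 0.09). A single Alk1 ECKO cell held 58 of the 207 UMIs, and without it Gpnmb stood at 47.1 CPM in Alk1 ECKO, a log2 ratio of -0.78 (-1.22 to -0.34) that was called lower. Without the richest cell of both libraries Gpnmb stood at 47.1 CPM in Alk1 ECKO and 69.7 CPM in control (log2 ratio -0.56, -1.03 to -0.08, not called).

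**Figure D4:**
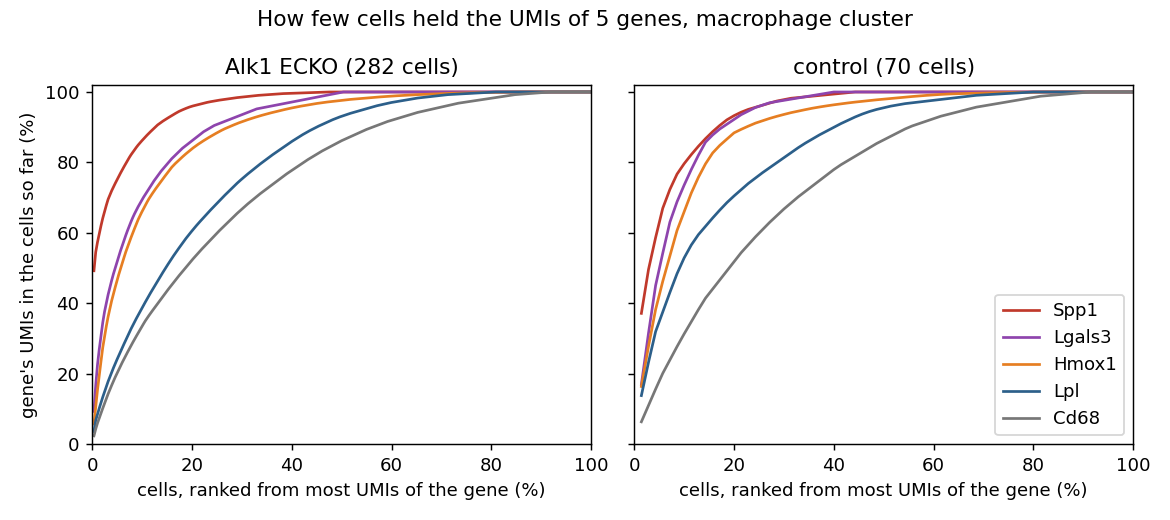
Cells of the macrophage cluster are ranked from most to fewest UMIs of a gene (percent of cells, horizontal axis), and the curve gives the share of that gene's UMIs held so far (percent, vertical axis), in Alk1 ECKO left and control right. Of the 5 genes drawn, Spp1 rises most steeply in Alk1 ECKO, where its first cell holds 49.2% of the UMIs, and Cd68 is the flattest curve in both.

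The genes whose level followed each of the 9 most closely were sought across cells thinned to 2000 UMIs, by Pearson correlation of log2(CPM + 100), as a description of cells that share a library. They were picked for the highest r in Alk1 ECKO, so the r in control beside it is not a like comparison. Over the 751 Alk1 ECKO cells that met the C1q rule and had this depth, Lpl was closest to Apoe (r 0.65, against 0.02 in 64 control cells), Cd68 to Apoe (0.52 in Alk1 ECKO, -0.04 in control) and Spp1 to the lysosomal protease gene Ctsd (0.33 in Alk1 ECKO, 0.18 in control). Hmox1 was closest to the ferritin chains Fth1 and Ftl1 and to Gclm, a subunit of the enzyme that starts glutathione synthesis, and Lgals3 to Fth1 and Ftl1. The rule cells also differ in kind, as 230 of these 751 Alk1 ECKO cells and 62 of the 64 control cells lay in the macrophage cluster. In the macrophage cluster alone Apoe was no longer among the 3 genes closest to Lpl or Cd68. The gene closest to Lpl there was Ctsb, a lysosomal protease gene (r 0.27 in Alk1 ECKO, 0.39 in control), while Spp1 stayed closest to Ctsd (0.25 in Alk1 ECKO, 0.19 in control). Next to Spp1 came Mrpl28 (0.25 in Alk1 ECKO, -0.01 in control) and Stx7 (0.23 in Alk1 ECKO, -0.18 in control). In the 54 control cells that counted as microglial, r was 0.07 for Spp1 with Ctsd and 0.25 for Lpl with Ctsb. Over the whole cluster Hmox1 gave r of 0.67 with Fth1, 0.65 with Ftl1 and 0.52 with Gclm over 230 Alk1 ECKO cells, and 0.64, 0.71 and 0.57 with the same genes over 62 control cells. Lgals3 gave 0.45 with Fth1 in Alk1 ECKO and 0.50 in control. Gpnmb, Mrc1 and Pf4 reached at most 0.20 over the rule cells of Alk1 ECKO, where few cells held them, and Lyve1 had no UMI left after thinning.

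Other genes of the pathways came from lists chosen with earlier results known, and their counts stand beside the 2.99% of all measured genes called higher and the 12.9% called lower in the cluster. Of 29 measured phagocytic and lysosomal genes 2 were called higher (Csf1, 105 CPM in Alk1 ECKO and 63.1 CPM in control, and Fabp5) and 1 lower (Lilrb4a), with a median log2 ratio of 0.07. Fabp5 was not called without its richest Alk1 ECKO cell, nor Lilrb4a without its richest control cell. Of 15 haem, iron and antioxidant genes none was called higher and 4 lower, a share of 26.7%, with a median of -0.01. Slc7a11, the cystine transporter, stood at 17.7 CPM in Alk1 ECKO and 91.5 CPM in control (log2 ratio -2.37), with UMIs in 24 Alk1 ECKO and 8 control cells. Srxn1, sulfiredoxin, stood at 77.8 CPM in Alk1 ECKO and 188 CPM in control (-1.27). Their calls held without the richest control cell (-1.65 and -0.84), whereas those of Txnrd1 and Slc40a1 did not. Of 11 lipid genes 1 was called higher (Fabp5) and 1 lower (Ppard, not called without its richest control cell), and of 4 MiT/TFE factor genes none in either direction. Of 7 osteopontin receptor genes 1 was called higher (Itgav) and none lower. Itgav had 67 of 3224693 UMIs in Alk1 ECKO and 7 of 776124 UMIs in control, with a log2 ratio of 1.17 without its richest Alk1 ECKO cell. In microglial cells alone none of the 7 was called in either direction. Erythroid list transcripts summed to 176 CPM in Alk1 ECKO cells of the cluster and 576 CPM in control cells, and rod list transcripts to 85.9 CPM in Alk1 ECKO and 286 CPM in control, and the part of this difference in the results above was not tested.

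Outside the macrophage cluster the rule cells of Alk1 ECKO carried 7 of the 9 genes at lower levels than those inside, in proportions that differed by gene, the exceptions being Pf4 and Lyve1. Hmox1 stood at 1296 CPM in the 1126 cells outside, 30.8% of its level of 4209 CPM inside. Cd68 and Lgals3 were at 17.5% of their level inside, Gpnmb at 17.0%, Spp1 at 8.25% and Lpl at 3.47%, beside 12.9% for C1qa, 8.15% for Apoe and 1.74% for Cx3cr1. Pf4 had 34 UMIs (11.2 CPM) outside and 21 UMIs (6.51 CPM) inside, Lyve1 had 1 UMI outside and 0 inside, and Mrc1 had 4 UMIs outside and 63 inside. C1qa is part of the rule by which these cells were picked, which holds up its level outside the cluster. The shares differed between genes, such as 1.74% for Cx3cr1 and 30.8% for Hmox1, and the cause was not tested.

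Among cells that did not meet the rule, Hmox1 was highest in 138 Alk1 ECKO cells of the unnamed low-mitochondrial cluster, at 1015 CPM, where Cd68 stood at 120.4 CPM. The 3 control cells of that cluster held no Hmox1. In the barcodes that failed the cell filter, 6 of the 9 genes were measured, 5 of them called higher in Alk1 ECKO and none lower, where 22.0% of 8355 measured genes were called higher and 37.3% lower. In the named classes the levels of the 9 genes were below 100 CPM wherever at least 3 UMIs were held, apart from Lpl in control amacrine cells. Endothelial cells held Hmox1 at 21.5 CPM in Alk1 ECKO and 17.8 CPM in control (log2 ratio 0.27, 0.05 to 0.51), and Pf4 with 270 UMIs in Alk1 ECKO and 89 UMIs in control (log2 ratio -0.48, -0.84 to -0.12). Lyve1 had 47 UMIs (1.04 CPM) in Alk1 ECKO endothelial cells and 4 UMIs (0.377 CPM) in control ones. Spp1 had 58 UMIs (1.29 CPM) in Alk1 ECKO endothelial cells and 0 in control ones, of 45000162 and 10601327 UMIs in all. Lpl had 3 of 150261 UMIs in 22 Alk1 ECKO amacrine cells and 192 of 1277310 UMIs (150.3 CPM) in 173 control amacrine cells. Rods held Lpl at 4.97 CPM in Alk1 ECKO and 3.90 CPM in control, and Hmox1 at 5.80 CPM in Alk1 ECKO and 1.91 CPM in control. Gpnmb had 1 UMI (1.05 CPM) in Alk1 ECKO and 14 UMIs (3.25 CPM) in control cells of the Müller or late progenitor class. The interval of its log2 ratio, -7.03 to 1.09, includes no change. Mural cells of Alk1 ECKO, 149 cells, held Hmox1 at 30.4 CPM, against 0 UMIs in 11 control mural cells. The mural cells held 2397431 UMIs in all in Alk1 ECKO and 144349 in control, so the control value is loosely bounded.

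**Figure D5:**
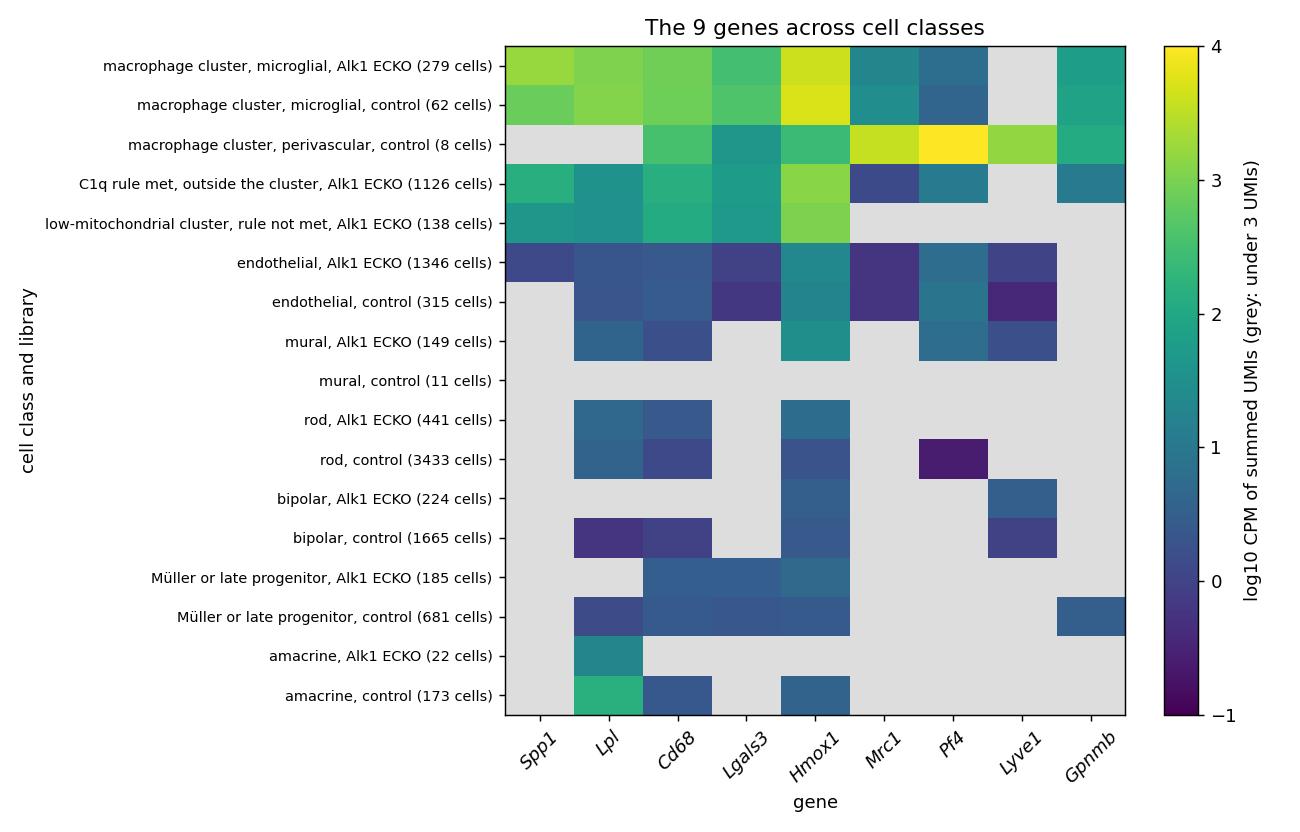
Level of each of the 9 genes (columns) in cell classes of both libraries (with Alk1 ECKO above control), as log10 CPM of summed UMIs, with grey for fewer than 3 UMIs. A class is drawn from 5 cells upward. High values lie in the macrophage cluster, in its microglial cells for Hmox1, Spp1, Lpl and Cd68 and in the 8 control perivascular cells for Pf4, Mrc1 and Lyve1, and outside it Hmox1 stands at 1296 CPM in the Alk1 ECKO rule cells and 1015 CPM in the Alk1 ECKO low-mitochondrial cells that did not meet the rule, and Lpl at 150.3 CPM in control amacrine cells.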

How the data were processed

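Single-cell libraries (10x Genomics Chromium 3' v3.1, per the labels' protocols) were deposited as matrices of raw UMI counts. Per the file headers they come from Cell Ranger 5.0.1, whereas the submitters' processing notes list FastQC 0.11.9, Cell Ranger 6.1.1 and mm10. How intronic reads were treated and how many animals were pooled is not given in the sources used here.

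Cells were kept from 1000 UMIs and 500 genes upward where mitochondrial UMIs made up no more than 10% (4237 in Alk1 ECKO, 7909 in control). Scrublet's own threshold called 1 doublet in Alk1 ECKO and 0 in control, so the highest scores were removed instead at 0.8% per 1000 cells, 144 in Alk1 ECKO and 500 in control. Both libraries were clustered together (scanpy 1.11.5, Leiden resolution 1.0, 3000 variable genes, 30 components, 15 neighbours), and clusters were named from marker lists. Counts were summed per class and library and given as CPM. The 95% intervals are exact Poisson (levels), conditional binomial (ratios) and Clopper-Pearson (shares). No p-value was computed, since cells are not replicates. Counts were also simulated with Poisson error alone for the cluster comparison (7763 genes). In them the interval covered the ratio for 96.4% of 7563 unchanged genes. Changes of 2-fold were called for 72% of lowered and 84% of raised genes. The simulation left out spread between cells, so it cannot show how intervals and calls behave where 1 cell holds much of a sum. All 9 genes are named, with up to 3 of the genes closest to Spp1, Lpl, Cd68, Lgals3 and Hmox1. Those closest to Gpnmb, Mrc1 and Pf4 are not named. Up to 3 called members are named at each end of a list. The members and lists were chosen with earlier results of these data known.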

Additional observations from a re-analysis of the deposited data

Results flagged for a closer look

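Barcodes that failed the cell filter, 1071 in Alk1 ECKO and 830 in control, lie outside the cells compared, and 5 of the 9 genes were called higher in Alk1 ECKO in them, beside 22.0% of measured genes. Hmox1 was at 859 CPM in these Alk1 ECKO barcodes and 92.7 CPM in the control ones. Spp1 was at 149.5 CPM in Alk1 ECKO and 22.5 CPM in control. Cd68 was at 129 CPM in Alk1 ECKO and 30.2 CPM in control. Lpl was at 65.0 CPM in Alk1 ECKO and 38.0 CPM in control, and Lgals3 at 53.1 CPM in Alk1 ECKO and 11.6 CPM in control. Their median mitochondrial share was 0.705% in Alk1 ECKO and 10.2% in control, and what part this had in the difference was not tested.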

How the results depend on the processing

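Over all cells that met the C1q rule, the 8 genes called lower and 0 called higher became 3 and 1 at a C1q threshold of 3000 or 10000 CPM, in the macrophage cluster with or without the C1q rule, and without cells under 1% mitochondrial UMIs or with endothelial transcripts. The count higher was also 1 without doublet removal, relative to the median and with a fold limit of 5 to 4, and the count lower was 5 in microglial cells and 4 at 2-fold. Log2 ratios changed sign at 10000 CPM for Cd68 (0.20), Lgals3 (0.25) and Hmox1 (0.25), for Cd68 in the cluster (0.14 whatever the C1q, 0.13 with the rule), without low mitochondrial cells (Cd68 0.11, Lpl 0.075) and without endothelial transcripts (Cd68 0.11), for Spp1 as a mean of per-cell CPM (-0.87) and for Pf4 without perivascular cells (0.94) or in microglial cells (0.99). In the cluster, the count lower was 0 without perivascular cells or in microglial cells, where Pf4 gave 0.62 and 0.63, and the count higher was 0 without the Alk1 ECKO cell richest in Spp1. The Alk1 ECKO perivascular share was 0 at 10000 CPM, without low mitochondrial cells and with cells thinned. Most of these alternatives differ by construction in which cells enter, whereas the fold limits, the median, the per-cell mean and thinning change the call or the value of the cells compared, and the cause of the changes was not tested. No paired analysis was possible because each genotype has 1 library. With 70 control cells, counts such as the 3 Pf4 UMIs of control microglial cells limit the precision.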
